A study of Mus musculus with 37 samples.

Results

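Sorted Lgr5-EGFP+ cells from VIP-treated jejunal organoids were compared between organoids that received 6 Gy of X-rays and organoids that were not irradiated. VIP, vasoactive intestinal peptide, is a neuropeptide, and both sides of the comparison were exposed to it at 100 nM, so that the contrast is of irradiation with the peptide present. The members are the 8 libraries, of 37 in the series, whose labels give sorted Lgr5-EGFP+ cells, VIP and the irradiation experiment: 4 were irradiated and 4 were not. The number in the labels was taken as the mouse. Each of 4 organoid lines, 1 per mouse and called mouse 1 to mouse 4 here, gave 1 library to each side. The study derived organoids for this reporter from Lgr5-EGFP-IRES-CreER T2 mice of both sexes aged 6 to 12 weeks, in which EGFP and an inducible Cre are expressed from the Lgr5 locus. Live EGFP+ cells were then sorted by flow cytometry. Irradiated organoids received VIP for the 48 h after the dose, and the sources used here give the day of irradiation after plating in more than one way. The time for which the non-irradiated cells were exposed to VIP is not stated in the sources used here, so a difference in exposure time and irradiation itself cannot be told apart. A matching set of 8 libraries came from the same 4 mice without VIP, 4 irradiated and 4 not. It entered the same fit, where it shared the gene filter, the estimate of the spread and the mouse block. Otherwise it served only to show where the VIP-treated cells differed.

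Lgr5-expressing crypt base columnar cells are the cycling stem cells of the small intestine and feed both the absorptive and the secretory lineages. Ionizing radiation breaks DNA and stabilizes p53, a transcription factor that switches on genes for cell cycle arrest, for its own feedback inhibition, for apoptosis and for repair. Surviving crypt cells then pass through a regenerative phase in which genes of the fetal epithelium are expressed, and lost stem cells can be replaced by their progeny.

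The libraries held unique molecular identifier (UMI) counts of 3′ ends of polyadenylated transcripts, between 1331494 and 1641900 UMIs in the non-irradiated and between 1251369 and 1876729 in the irradiated samples. Levels are given as CPM, UMI counts relative to the TMM-scaled size of each library. The irradiated sample had more UMIs in 3 of 4 mice, with means of 1670866 against 1469368. More genes had a UMI in the irradiated sample of 4 of 4 mice, a number that also depends on depth. Ribosomal protein genes took 6.59% to 6.96% of UMIs after irradiation against 7.29% to 8.35% without, lower in 4 of 4 mice. For the number of genes and the ribosomal share the exact two-sided sign-flip test gave p = 0.125, the smallest value that 4 mice allow. On the first principal component, with 39.2% of the variance, the 4 irradiated VIP-treated samples lay between 4.72 and 9.09 and the 4 non-irradiated ones between −14.9 and −8.51.

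The sort could be checked only through endogenous genes. Olfm4, a stem cell marker, stood at 4130 to 4680 CPM scaled to library size in the non-irradiated VIP-treated samples, against 1100 to 3540 CPM in the VIP-treated whole organoids of a separate experiment. Lgr5 itself went against the label in the same setting, with 20.7 to 38.3 CPM in the sorted and 43.3 to 120 CPM in the whole-organoid libraries. The whole organoids came from other mice and another table. Per the study they were from C57Bl/6 mice and the sorted cells from the reporter strain. Strain and sorting therefore cannot be told apart here. A separate set of sorted VIP-treated cells from reporter mice had 36.5 to 56.2 CPM of Lgr5 and 4500 to 5850 CPM of Olfm4. Markers of other cell types went both ways. Chga, an enteroendocrine marker, was at 183 to 411 CPM in the sorted samples. It was at 78.3 to 136 CPM in whole organoids and 33.3 to 92.1 CPM in that separate sorted set. The tuft marker Dclk1 was at 5.97 to 18.8, 1.01 to 6.54 and 1.58 to 3.62 CPM in the same order. Muc2 of goblet cells (12.2 to 30.8 against 89.1 to 180 CPM) and Alpi of enterocytes (1.22 to 14.2 against 135 to 475 CPM) were lower in the sorted than in the whole-organoid samples. Of 26 genes of immune, stromal, endothelial and neural cells none had enough counts for the test, and their sum was 4.86 to 11.3 CPM without and 7.96 to 9.54 CPM with irradiation. In bulk RNA, fewer cells of a type and less RNA per cell cannot be told apart.

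Irradiation of VIP-treated Lgr5-EGFP+ cells changed 776 of 9976 tested genes at an adjusted p of 0.05 or less (7.78%) in edgeR's quasi-likelihood test with the mouse as a block. Of these, 431 genes rose (4.32%) and 345 fell (3.46%). The counts of called members in the gene lists below are to be read against these shares. The rises were larger: the median size of a called change was 0.86 on the log2 scale for rises and 0.44 for falls, and 183 genes rose but only 13 fell by at least 2-fold. Direction was the same in 4 of 4 mice for 749 of the 776 genes. The levels of the 4 irradiated samples did not overlap those of the 4 non-irradiated ones in 615 of the 776 genes, and in 1275 (12.8%) of all genes tested. The median over all tested genes was 0.00. The number of genes past the threshold was 489 with DESeq2's Wald test, 474 without mouse 2 and 426 without mouse 4.

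**Figure D1:**
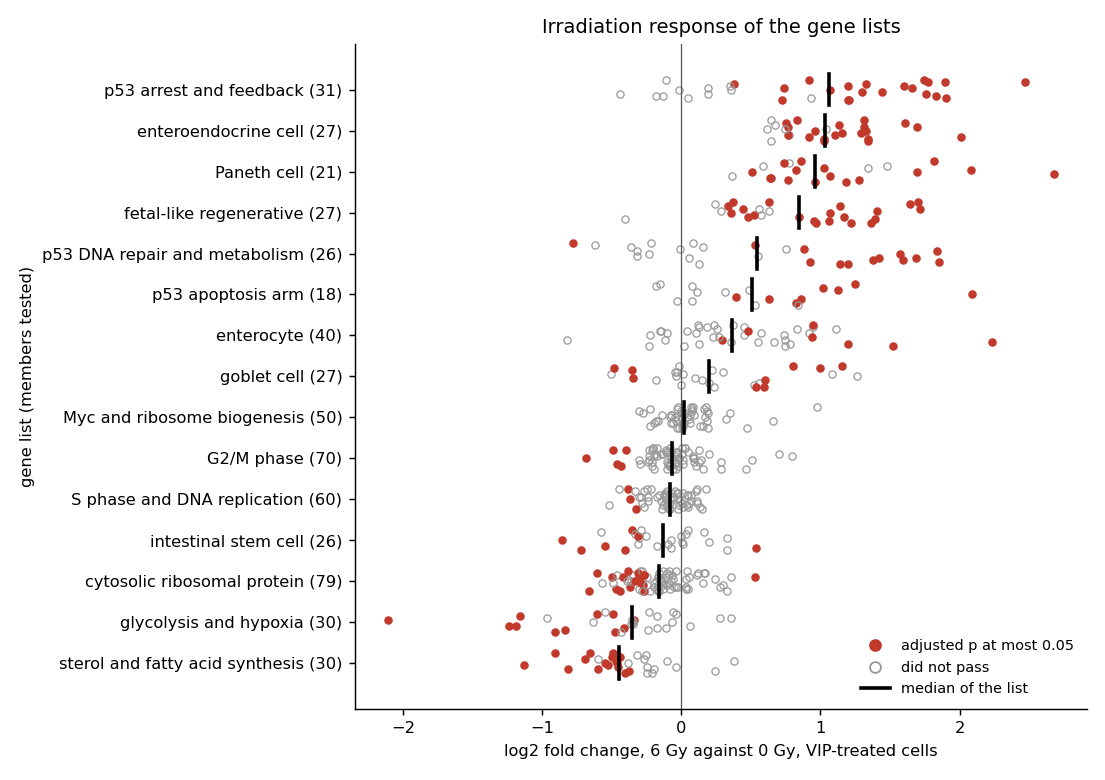
Log2 fold change of irradiated against non-irradiated VIP-treated Lgr5-EGFP+ cells (x axis) for the tested members of 15 gene lists (y axis, number tested in parentheses). Filled points are genes with an adjusted p of 0.05 or less, open points did not pass, and the bar is the list's median. Medians ran from 1.06 for the p53 arrest and feedback genes to −0.45 for sterol and fatty acid synthesis.

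Targets of p53 for arrest and feedback rose as a group. Of 36 listed genes 31 could be tested, 20 rose and none fell, with a median of 1.06. Cdkn1a, on chromosome 17 of GRCm38 from 29090976 to 29100727, encodes p21, the inhibitor of cyclin-dependent kinases that carries out p53-dependent arrest. Its level in mice 1 to 4 was 210.3, 179, 236 and 160.3 CPM without and 615, 652, 659 and 699 CPM with irradiation. The groups did not overlap, and the log2 fold change was 1.75 (SE 0.10, edgeR adjusted p = 2.37e-11), a 3.36-fold rise. Mdm2, the ubiquitin ligase that degrades p53, went from 18.4, 18.8, 17.5 and 16.4 to 47, 73.3, 57.8 and 62.8 CPM. Its rise of 1.75 (SE 0.17, edgeR adjusted p = 1.25e-07) on the log2 scale started from a narrow baseline, the non-irradiated samples spanning 16.4 to 18.8 CPM. Phlda3, an inhibitor of Akt signalling, rose from 41.3, 45.2, 68.2 and 43.1 to 138, 151, 218 and 197 CPM. All irradiated samples lay above all non-irradiated ones, and the log2 fold change was 1.83 (SE 0.13, edgeR adjusted p = 8.58e-10).

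The remaining arrest genes followed with similar sizes. Ccng1, a cyclin that feeds back on Mdm2, rose by 1.60, Zmat3, an RNA-binding p53 target, by 1.90, and Trp53inp1, a p53-inducible nuclear protein, by 1.89 (log2, edgeR adjusted p = 7.86e-08, 2.03e-06 and 0.000174). Gains were also called for the kinase gene Plk2 (1.77), the stress cytokine Gdf15 (1.29), Sesn2 (1.66), Btg2 (0.72) and Mdm4 (0.92), a relative of Mdm2 that also restrains p53. The 11 members that did not pass included Ccng2 (−0.44). Trp53 itself had 187, 214, 186 and 186 CPM without and 158, 132, 158 and 182 CPM with irradiation. Its levels did not overlap either and were lower in the irradiated sample of each mouse, with a log2 difference of −0.28 (SE 0.09, edgeR adjusted p = 0.0637) that missed the threshold. Between 15 and 20 members passed when single mice were left out.

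**Figure D2:**
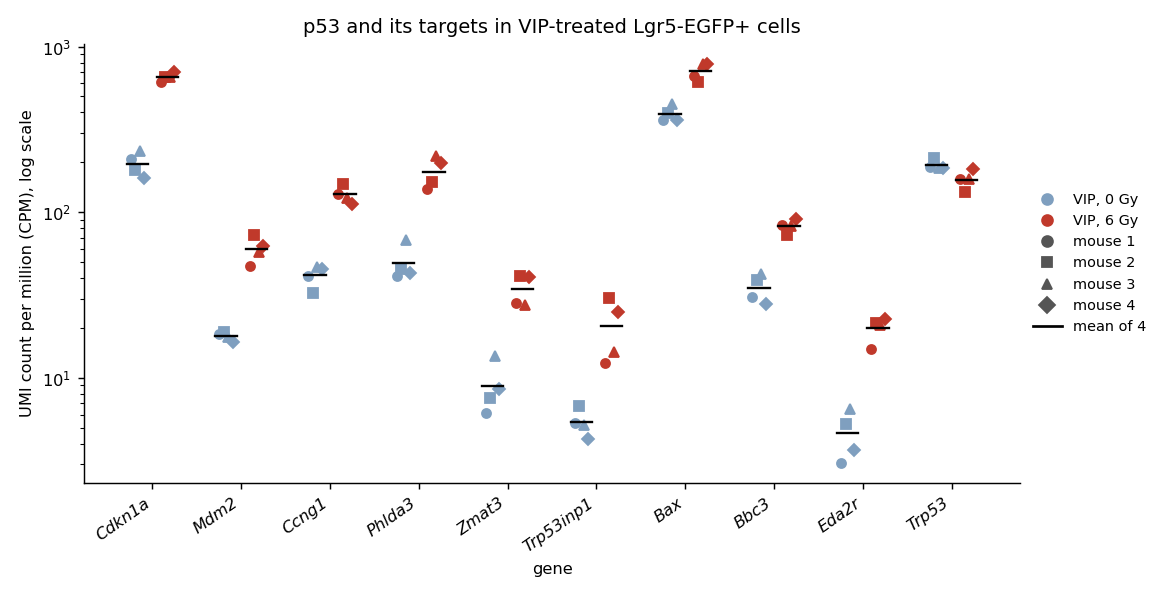
Level of Trp53 and 9 of its targets in each VIP-treated sample (y axis, CPM on a log scale), non-irradiated in blue and irradiated in red, with a symbol per mouse and a bar for the mean of 4. The targets lie higher in all 4 irradiated samples, from a fitted 4.26-fold for Eda2r down to 1.82-fold for Bax, whereas Trp53 lies at 132 to 182 CPM in irradiated and 186 to 214 CPM in non-irradiated samples.

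Promoters were searched for the p53 half-site consensus (10 bases, a palindrome and therefore the same on both strands) in the 300 bases from 250 before to 50 after the first RefSeq transcript start. The half-site was in the promoter of 10 of the 35 p53 targets that rose and had a window (28.6%), and in 13 of 62 tested p53 targets (21%). It was in 13.6% of the windows of all genes that rose, which include these 10, and in 6.25% of those of genes that fell. Tested genes had it in 6.67% and all 27025 windows in 8.37%. Because the list is of known p53 targets, its share is no test of why the genes moved together. Outside the p53 targets it was in 3 of 12 windows of the sterol synthesis genes that fell. Pairs of half-sites at most 13 bases apart occurred in 0.0592% of windows and, among the p53 targets, in that of Cdkn1a alone. The stretches shown here, for 5 of the 10 genes, have each half-site in capitals with 20 bases on each side, read 5′ to 3′ on the strand of the gene, and for Cdkn1a belong to the upstream-most of its starts. They lie at chr17:29090886-29090957 (+ strand), chr10:117710915-117710964 (- strand), chr11:40755442-40755491 (- strand), chr7:45467070-45467119 (- strand) and chr12:112644590-112644639 (+ strand) of GRCm38.p6, and the first half-site begins 73, 186, 185, 201 and 218 bases before the start. A match of letters is not a binding site.
Cdkn1a: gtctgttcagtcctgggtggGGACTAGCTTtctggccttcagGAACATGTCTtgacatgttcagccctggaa
Mdm2: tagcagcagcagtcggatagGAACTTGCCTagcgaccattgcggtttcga
Ccng1: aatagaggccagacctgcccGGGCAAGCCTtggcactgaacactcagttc
Bax: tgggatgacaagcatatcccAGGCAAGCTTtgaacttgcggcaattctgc
Siva1: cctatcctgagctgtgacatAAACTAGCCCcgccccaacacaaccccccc

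Among pro-apoptotic targets of p53 8 genes rose of the 18 tested (of 22 listed), with none lower and a median of 0.51. Bax, whose product permeabilizes the outer mitochondrial membrane, had 359.5, 399, 447 and 361 CPM without and 662, 610, 786 and 786 CPM with irradiation. These levels did not overlap, and the log2 fold change was 0.86 (SE 0.08, edgeR adjusted p = 1.01e-07). Bbc3, which encodes the BH3-only protein PUMA, rose from 30.6, 39.1, 42.2 and 27.9 to 83.3, 72.5, 82.8 and 90.9 CPM, a log2 fold change of 1.25 (SE 0.13, edgeR adjusted p = 3.16e-07). Eda2r, a death domain receptor of the TNF receptor family, rose from between 3.06 and 6.49 CPM to between 15 and 22.7 CPM, by 4.26-fold (edgeR adjusted p = 1.51e-05). Called rises of Siva1 (0.63), Ei24 (0.82), the death receptor Fas (1.01), the apoptosome scaffold Apaf1 (1.12) and Perp (0.39) were smaller than that of Bbc3. Pmaip1, which encodes NOXA, was 0.49 and did not pass, like Aen (0.53) and Pidd1 (0.84). In the general apoptosis machinery 1 of 26 tested genes passed, Bok at 0.29 (edgeR adjusted p = 0.0425). That is 3.85%, near the 4.32% of all tested genes that rose. The call was lost for Apaf1 without mouse 1, 2 or 3 (edgeR adjusted p = 0.0691, 0.167 and 0.0748) and with DESeq2 (adjusted p = 0.0927), Fas without mouse 2, 3 or 4 (edgeR adjusted p = 0.0739, 0.0701 and 0.38) and with DESeq2 (adjusted p = 0.186) and Bok without any 1 mouse (edgeR adjusted p = 0.0508 to 0.227) and with DESeq2 (adjusted p = 0.197).

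Targets of p53 in DNA repair and metabolism moved with them, 12 of 26 tested genes rising and 1 falling out of 33 listed, with a median of 0.54. Dcxr, a carbonyl reductase, went from 68.1, 55, 72 and 58.3 to 149.6, 153, 179 and 176 CPM, and Crip2, a LIM domain protein, from 35.2, 37.6, 44.1 and 26.7 to 109.5, 113, 158 and 129.9 CPM. Neither pair of groups overlapped, and the log2 fold changes were 1.38 (SE 0.11, edgeR adjusted p = 1.64e-08) and 1.84 (SE 0.16, edgeR adjusted p = 3.98e-08). Of the repair genes proper, the excision endonuclease Ercc5 (1.85), the translesion polymerase Polk (1.59) and the alkyl transferase Mgmt (1.42) rose, whereas Ddb2 was −0.62 without passing. Sat1, the polyamine acetyltransferase, rose by 0.93, and Rps27l, a ribosomal protein paralog, by 0.53. The 1 gene that fell was Ndrg1 (−0.78, edgeR adjusted p = 0.0495), which is induced by hypoxia as well as by p53. A separate list of break repair and checkpoint genes, which includes Trp53 itself, gave a single call. In it 1 of 43 tested genes passed, Rad54l at −0.59 (edgeR adjusted p = 0.0373). That is 2.33%, against 3.46% of all tested genes that fell. Alternative fits ended the call of Ndrg1 without any 1 mouse (edgeR adjusted p = 0.0534 to 0.191) and with DESeq2 (adjusted p = 0.104) and Rad54l without mouse 1, 2 or 4 (edgeR adjusted p = 0.118, 0.175 and 0.1) and with DESeq2 (adjusted p = 0.132).

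The 10 largest rises that went the same way in 4 of 4 mice were mostly in genes of low level. Abcb1b, the efflux pump of multidrug resistance, was counted with 4, 0, 3 and 6 UMIs without and 13, 39, 14 and 43 UMIs with irradiation, a log2 fold change of 2.83 (edgeR adjusted p = 0.000743). Pid1 (2.83), Psapl1 (2.48) and the guanine exchange factor Def6 (2.47) rested on 1 to 25 UMIs per library where detected. Ddit4l, an inhibitor of mTOR signalling, was better covered and rose from 12.2, 12, 26.6 and 10.9 to 49.7, 89.2, 84.6 and 90.9 CPM, 5.02-fold, without overlap. Zfp385a, a zinc finger protein that binds p53, rose by 2.27 (edgeR adjusted p = 0.00254). The remaining places were taken by the alpha-defensins Defa38 (2.68) and Defa29 (2.35) and by short RNA loci, Gm24146 (a misc_RNA of chromosome 5, 2.94) and Gm23935 (annotated as a microRNA gene of chromosome 16). Gm23935 had 494, 236, 254 and 209.5 CPM without and 2103, 1971, 1507 and 2266 CPM with irradiation, without overlap. In the untreated non-irradiated samples of mice 1 to 4 it had 2865, 263.5, 291.8 and 290.2 CPM. The untreated sample of mouse 1 thus lay above all irradiated VIP-treated samples without a dose. Gm24146 had 7.53 CPM in that sample against 0.67 to 1.25 CPM in the other untreated non-irradiated ones. The call did not hold for Pid1 without mouse 4 (edgeR adjusted p = 0.0713), Zfp385a without mouse 4 (edgeR adjusted p = 0.0667) and Defa29 without mouse 4 (edgeR adjusted p = 0.18). Calls that ended were those of Gm24146 without mouse 2, 3 or 4 (edgeR adjusted p = 0.0881, 0.0662 and 0.147).

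Genes of secretory cells were called inside the Lgr5-EGFP+ gate. All 21 tested Paneth cell genes (of 30 listed) had a higher fitted level after irradiation and 16 passed, with a median of 0.96. Paneth cells are the defensin- and lysozyme-secreting neighbours of the stem cells. Defa30, an alpha-defensin, went from 460.4, 431, 528 and 443 to 730.3, 1094, 1358 and 1349 CPM and Lyz1, lysozyme, from 979.7, 1057, 837 and 953 to 1440, 1578, 1580 and 1396 CPM. Neither overlapped, with log2 fold changes of 1.28 (SE 0.18, edgeR adjusted p = 2.9e-05) and 0.65 (SE 0.16, edgeR adjusted p = 0.00984). Clps (colipase, 1.03), Ang4 (1.18), Itln1 (0.82) and Mmp7 (0.74) rose too. Alpha-defensins are near-identical copies, so the split of reads among Defa genes is uncertain. The list summed to 9594 to 10900 CPM without and 16350 to 18890 CPM with irradiation. An adjusted p over the threshold was found for Lyz1 without mouse 3 (edgeR adjusted p = 0.0991) and with DESeq2 (adjusted p = 0.114). The number of Paneth genes that passed was between 13 and 17 when single mice were left out.

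Among genes of enteroendocrine cells, the hormone-secreting cells of the epithelium, 27 of 27 tested had a higher fitted level and 20 rose (30 listed, median 1.03). Chgb, a granin of secretory granules, had 645, 703, 1151 and 479 CPM without and 1201, 1705, 2190 and 1223 CPM with irradiation. Mouse 3 was highest in both groups, each mouse rose, and the log2 fold change was 1.11 (SE 0.12, edgeR adjusted p = 5.89e-07). Pyy, which encodes peptide YY, rose from 26.8, 12, 32.5 and 20.6 to 167, 65.3, 50.1 and 102 CPM, a 4.03-fold change (edgeR adjusted p = 4.07e-06). Chga went from 314, 231, 417 and 182 to 409, 551, 664 and 319.8 CPM. Its groups overlapped, with mouse 3 highest and mouse 4 lowest in both, and its rise of 0.77 (edgeR adjusted p = 0.000707) had an adjusted p of 0.0673 in edgeR without the mouse as a block. Hormone genes of different endocrine subtypes rose, among them Cck (1.34), Gcg (1.61), Gip (1.13) and Sst (1.69), as did Cpe, the hormone-processing carboxypeptidase (1.32), and the transcription factor gene Neurod1 (1.31). Outside this list, Slc6a4, the serotonin reuptake transporter, was among the 10 largest falls. It fell by 1.78 on the log2 scale, from between 4.52 and 9.18 CPM to between 0.796 and 2.67 CPM. Dependence on the samples or tool was seen for Slc6a4 without mouse 3 or 4 (edgeR adjusted p = 0.0848 and 0.0871) and with DESeq2 (adjusted p = 0.051). Without mouse 4, 15 of the enteroendocrine genes passed.

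Goblet and tuft cell genes gave fewer calls. Of 27 tested goblet genes 6 rose and 3 fell (29 listed, median 0.20). Tff3, the trefoil factor of mucus, rose from 1003, 1000, 1101 and 848 to 1725, 1668, 1231 and 1399 CPM, log2 0.60 (SE 0.10, edgeR adjusted p = 0.000358), without overlap. Spink4 (0.54), Guca2a (0.60) and the gel-forming mucin Muc2 (0.80) rose as well. The falls were in regulators and a processing enzyme, Foxa3 (−0.36), Creb3l1 (−0.49) and Galnt12 (−0.35), while Atoh1, the master regulator of secretory fate, had a log2 difference of −0.03 (edgeR adjusted p = 0.955), with 26 to 51.2 CPM without and 24.4 to 44.9 CPM with irradiation. In the tuft cell list 1 of 16 tested genes passed, Sh2d6 (1.15), and 3 passed without mouse 4. The 1 call is 6.25% of the list, near the 4.32% of all tested genes that rose. The tuft kinase gene Dclk1 was 0.80 (edgeR adjusted p = 0.0806). No call was made for Muc2 without mouse 2 or 3 (edgeR adjusted p = 0.0747 and 0.0566), Foxa3 without mouse 3 (edgeR adjusted p = 0.0514) and Creb3l1 without mouse 2 or 4 (edgeR adjusted p = 0.175 and 0.264) and with DESeq2 (adjusted p = 0.0675). The call was lost for Galnt12 without any 1 mouse (edgeR adjusted p = 0.0855 to 0.165) and with DESeq2 (adjusted p = 0.169) and Sh2d6 without mouse 1, 2 or 3 (edgeR adjusted p = 0.105, 0.174 and 0.152) and with DESeq2 (adjusted p = 0.0685). Without mouse 2, 3 or 4 the count of goblet genes was 6.

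**Figure D3:**
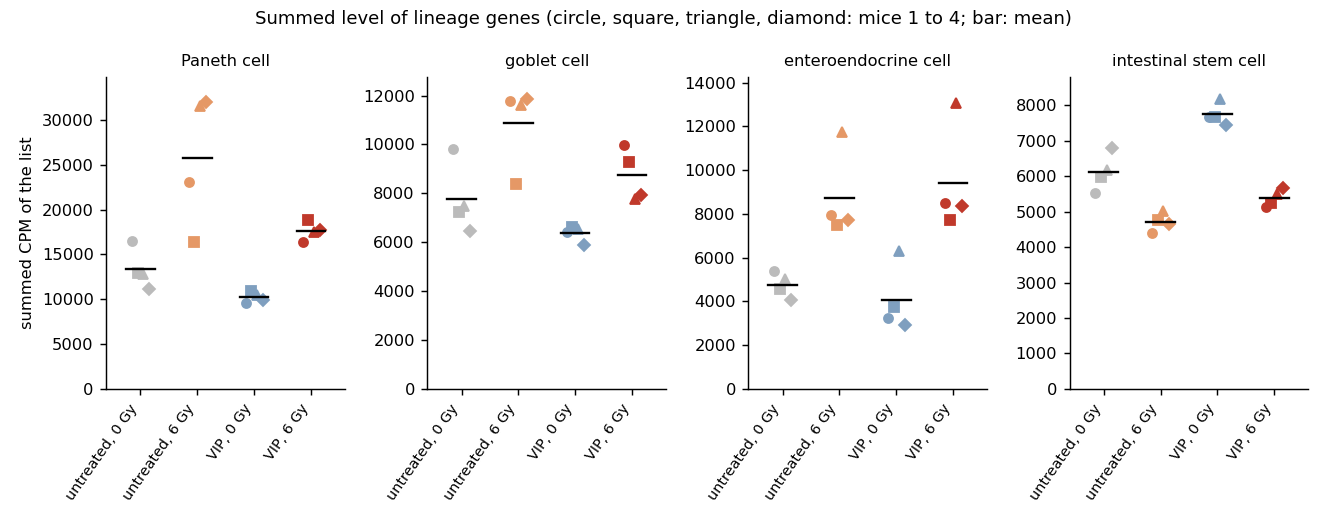
Summed CPM of the Paneth, goblet, enteroendocrine and stem cell lists (y axes) in each of the 16 sorted samples by treatment and dose, with a symbol per mouse and a bar for the mean of 4. Among VIP-treated samples the irradiated ones lie higher in the first 3 panels and lower in the stem cell panel, without overlap. The drop in the stem cell panel is mostly that of Olfm4.

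Stem cell markers split. Olfm4, the most abundant of them, fell in each mouse, from 4202, 4355, 4749 and 4341 to 2203, 2215, 2592 and 2755 CPM. Its groups were far apart, the log2 fold change being −0.86 (SE 0.07, edgeR adjusted p = 8.02e-09), a 1.81-fold decrease. Aqp4 (−0.72), Clca3b (−0.55), Smoc2 (−0.31) and Cdca7 (−0.36) fell too, and Prom1 (0.53) was the 1 member that rose. In all, 6 of 26 tested markers fell (30 listed, median −0.14). Lgr5, the receptor on which the sort rests, had 39, 27.1, 31.1 and 20.6 CPM without and 26.2, 30.3, 17.3 and 21.6 CPM with irradiation, lower in 2 of 4 mice and higher in the other two. Its log2 difference was −0.32 (SE 0.19, edgeR adjusted p = 0.363). Ascl2, a stem cell transcription factor, stood at 345, 276, 297 and 229 against 257, 178, 259.8 and 259 CPM, overlapping, with a log2 difference of −0.26 (edgeR adjusted p = 0.098). Alternative fits ended the call of Smoc2 without mouse 3 (edgeR adjusted p = 0.0901) and Prom1 without mouse 1, 2 or 4 (edgeR adjusted p = 0.084, 0.13 and 0.18) and with DESeq2 (adjusted p = 0.117). The stem cell list summed to 7448 to 8185 CPM without and 5119 to 5654 CPM with irradiation. Olfm4 alone made up 4202 to 4749 and 2203 to 2755 CPM of these sums, so the drop was mostly that of 1 gene. Of the 26 tested markers 9 had a higher fitted level.

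Of the markers of absorptive cells, 7 of 40 tested enterocyte genes rose and none fell (47 listed, median 0.36). Krt20, a keratin of the differentiated villus, rose from 26, 46.7, 38.9 and 25.5 to 76.4, 55, 72.7 and 59.5 CPM, without overlap and with a log2 fold change of 0.94 (SE 0.21, edgeR adjusted p = 0.00536). The antimicrobial lectin Reg3b (1.52), the brush border protease Mep1b (0.94) and the amino acid transporter Slc6a19 (2.23) rose from lower levels. The call did not hold for Reg3b without mouse 3 (edgeR adjusted p = 0.0703), Mep1b without mouse 3 or 4 (edgeR adjusted p = 0.0705 and 0.107) and Slc6a19 without mouse 1 or 3 (edgeR adjusted p = 0.104 and 0.0971). The count of 7 enterocyte genes was 4, 1 and 3 without mouse 1, 3 and 4. The calls in the Paneth (16 of 21), enteroendocrine (20 of 27), goblet (6 higher and 3 lower of 27) and enterocyte lists (7 of 40) were made inside a gate set on Lgr5-EGFP, and whether cells of these types within the gate had a part in any other result was not tested.

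Genes of the fetal-like regenerative state rose with the p53 targets. Of 47 listed genes 27 could be tested, 21 rose and none fell, with a median of 0.85. S100a6, a calcium-binding protein, went from 224, 243, 252 and 247 to 458, 411, 564 and 463 CPM, and Anxa1, an annexin of wound-associated epithelium, from 29.1, 30.1, 42.2 and 29.8 to 81.7, 52.6, 113 and 89.8 CPM. Neither pair of groups overlapped, and the log2 fold changes were 0.96 (SE 0.09, edgeR adjusted p = 9.95e-08) and 1.37 (SE 0.14, edgeR adjusted p = 2.81e-07). Clu, the marker of revival stem cells, rose from 49, 36.1, 33.1 and 20.6 to 63, 77.2, 84.6 and 75.2 CPM, and Ly6a, which encodes Sca-1, from 10.7, 7.53, 11.7 and 4.86 to 34.2, 14.3, 18.5 and 24.4 CPM. Each mouse moved in the same direction, with log2 fold changes of 1.14 (SE 0.22, edgeR adjusted p = 0.00117) and 1.40 (SE 0.27, edgeR adjusted p = 0.00163). Cldn4 (1.06), the interleukin-1 antagonist Il1rn (1.72), Tubb6 (1.70) and the tissue factor gene F3 (1.22) belonged to the same group of rises. Between 17 and 21 members passed when single mice were left out.

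Growth factor and Wnt genes gave a few calls, all rises. The EGF receptor ligands Areg (amphiregulin, 1.32), Btc (betacellulin, 1.08) and Hbegf (0.63) were the 3 of 17 tested EGF family genes that passed. Areg rose from 66.5, 42.1, 45.4 and 40.1 to 94, 162, 89.4 and 146 CPM, without overlap (edgeR adjusted p = 7.28e-06). Of 19 Wnt and Notch genes 4 rose: Ccnd1, encoding cyclin D1, from between 138 and 206 CPM to between 283 and 386 CPM (log2 0.82, edgeR adjusted p = 1.18e-05), Ctnnb1, encoding β-catenin (0.66), Ccnd2 (0.30) and Cd44 (0.71). Immediate early genes contributed Fosl1 (1.96), Nr4a1 (0.88), Junb (0.36) and Klf6 (0.28), 4 of 22 tested, a count that was 1 without mouse 3 and 2 without mouse 4. Among NF-κB and chemokine genes 3 of 24 rose, the adhesion molecule Icam1 (1.16), Cxcl16 (0.70) and Nfkbia (0.32), and none passed without mouse 4. Of 17 tested interferon response genes 1 passed, Ifi27l2b (0.33), and 2 passed without mouse 2. The 1 interferon call is 5.88%, near the 4.32% of all tested genes that rose. The share that rose was 17.6% for EGF, 21.1% for Wnt and Notch, 18.2% for immediate early and 12.5% for NF-κB genes. Calls that ended were those of Btc without mouse 3 (edgeR adjusted p = 0.0689), Ccnd2 without mouse 3 (edgeR adjusted p = 0.0566) and Cd44 without mouse 4 (edgeR adjusted p = 0.0549). An adjusted p over the threshold was found for Nr4a1 without mouse 3 (edgeR adjusted p = 0.0904), Junb without mouse 3 or 4 (edgeR adjusted p = 0.135 and 0.07) and Klf6 without any 1 mouse (edgeR adjusted p = 0.0765 to 0.133) and with DESeq2 (adjusted p = 0.15). Dependence on the samples or tool was seen for Icam1 without mouse 4 (edgeR adjusted p = 0.0703), Cxcl16 without mouse 1, 3 or 4 (edgeR adjusted p = 0.0601, 0.178 and 0.249) and with DESeq2 (adjusted p = 0.134) and Nfkbia without mouse 2 or 4 (edgeR adjusted p = 0.0828 and 0.152) and with DESeq2 (adjusted p = 0.0764). No call was made for Ifi27l2b without mouse 4 (edgeR adjusted p = 0.0545).

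Of 60 tested S phase genes 3 fell (5%) and none rose (median −0.08), and of 70 tested G2/M genes 5 fell (7.14%) and none rose (median −0.07). Of all tested genes 3.46% fell and 4.32% rose. Hmgb2, a chromatin protein of cycling cells, fell from 671, 633, 556 and 669 to 355, 344, 415 and 458 CPM, without overlap, a log2 fold change of −0.68 (SE 0.10, edgeR adjusted p = 7.22e-05). The kinetochore gene Spc24 (−0.49), the lamin gene Lmnb1 (−0.43), Cdca2 (−0.46) and Hmgb1 (−0.40) fell as well, and in S phase Pold2 (−0.38), Tk1 (−0.33) and Mcm6 (−0.37). Mki67, the proliferation antigen, had 121, 126, 104 and 131 CPM without and 96.2, 168, 100.1 and 118 CPM with irradiation. Its groups overlapped, mouse 2 was higher and the other 3 mice lower, and the log2 difference was −0.03 (SE 0.12, edgeR adjusted p = 0.931). Top2a (−0.09, edgeR adjusted p = 0.701) and Pcna (−0.24, edgeR adjusted p = 0.109) did not pass either, although the 4 irradiated Pcna levels lay below the 4 non-irradiated ones, which ran from 171 to 206 CPM. Without mouse 2 or 4 the S phase count was 1, and without mouse 4 the G2/M count was 3. The call was lost for Tk1 without mouse 2, 3 or 4 (edgeR adjusted p = 0.0857, 0.212 and 0.113) and with DESeq2 (adjusted p = 0.0914), Mcm6 without mouse 1, 2 or 4 (edgeR adjusted p = 0.101, 0.145 and 0.169) and with DESeq2 (adjusted p = 0.157) and Cdca2 without mouse 1 or 4 (edgeR adjusted p = 0.0642 and 0.142) and with DESeq2 (adjusted p = 0.0758). Alternative fits ended the call of Hmgb1 without mouse 1, 3 or 4 (edgeR adjusted p = 0.168, 0.0889 and 0.27) and with DESeq2 (adjusted p = 0.166).

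Sterol and fatty acid synthesis genes fell as a group, 17 of 30 tested (31 listed) with none rising and a median of −0.45. Fdps, the farnesyl diphosphate synthase of the mevalonate pathway, fell from 1370, 1346, 1265 and 1279 to 607, 360, 779.5 and 682 CPM. The groups were well separated, with mouse 2 lowest after irradiation, and the log2 fold change was −1.13 (SE 0.13, edgeR adjusted p = 2.62e-06). Acat2, which makes acetoacetyl-CoA at the head of the pathway, fell from 492, 428, 432 and 408 to 277, 261, 279 and 272 CPM, and Insig1, the sterol sensor that retains SREBP in the endoplasmic reticulum, from 132, 154, 123 and 138 to 75.9, 57.3, 75.1 and 78.5 CPM. Neither overlapped, with log2 fold changes of −0.69 (SE 0.08, edgeR adjusted p = 3.65e-06) and −0.91 (SE 0.12, edgeR adjusted p = 1.57e-05). The squalene epoxidase Sqle (−0.66), the last enzyme of cholesterol synthesis Dhcr7 (−0.82) and the desaturase Scd2 (−0.46) fell too. The synthase Hmgcs1 (−0.27) and the fatty acid synthase Fasn (0.24) did not pass. The list summed to 4442 to 4886 CPM in non-irradiated and 2695 to 3139 CPM in irradiated VIP-treated samples. In the untreated samples the sums were 3490 to 4090 and 2889 to 3215 CPM, so that the irradiated sets overlapped and the VIP-treated non-irradiated samples lay above the untreated ones.

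Promoters of sterol genes often hold a CCAAT box, the site of the factor NF-Y that works beside SREBP. CCAAT (or ATTGG on the other strand) was found in 9 of the 12 windows of sterol genes that fell and had one (75.0%), in 17 of 21 (81.0%) of all tested sterol genes with a window, in 47.9% of the windows of all genes that fell and in 37.9% of all windows. The stretches of 3 of the genes are shown with CCAAT or ATTGG in capitals, Insig1 as the sensor and Msmo1 and Mvd as enzymes with 3 and 2 boxes. They lie at chr5:28071176-28071220 (+ strand), chr8:64733609-64733758 (- strand) and chr8:122443425-122443502 (- strand) of GRCm38.p6, and the log2 fold changes of the genes were −0.91, −0.49 and −0.55. The window of Acat2 held no match, and Fdps was not in the table. CCAAT was in 16 of 35 windows of the p53 targets that rose (45.7%).
Insig1: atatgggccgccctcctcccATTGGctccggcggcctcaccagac
Msmo1: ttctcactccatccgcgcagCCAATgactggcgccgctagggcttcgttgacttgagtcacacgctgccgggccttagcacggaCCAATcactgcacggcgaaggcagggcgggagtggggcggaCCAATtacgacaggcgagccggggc
Mvd: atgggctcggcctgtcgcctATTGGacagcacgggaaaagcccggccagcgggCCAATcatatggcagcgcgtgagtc

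Glycolysis and hypoxia-response genes also fell, 11 of 30 tested (36 listed) with none rising and a median of −0.36. Slc16a3, the lactate exporter MCT4, had the largest called fall of those in the same direction in 4 of 4 mice, from 58.1, 48.2, 22.7 and 11.5 to 14.4, 7.17, 5.96 and 3.79 CPM. Mice 1 and 2 started high and mouse 4 low, so that the groups overlapped, but each mouse fell and the log2 fold change was −2.11 (SE 0.24, edgeR adjusted p = 1.44e-06). Pfkl, the liver-type phosphofructokinase, went from 272, 200.2, 151 and 148 to 93, 66.9, 91.2 and 85 CPM, and Pgk1, phosphoglycerate kinase, from 71.9, 51.2, 33.1 and 34.6 to 21.4, 13.5, 21.5 and 24.4 CPM. Neither overlapped, with log2 fold changes of −1.16 (SE 0.14, edgeR adjusted p = 2.47e-06) and −1.19 (SE 0.24, edgeR adjusted p = 0.00211). Tpi1 (−0.60), Eno1 (−0.83), Ldha (−0.41), Gpi1 (−0.48) and the hypoxia-induced Bnip3 (−1.24) fell with them. The call did not hold for Bnip3 without mouse 1 or 2 (edgeR adjusted p = 0.337 and 0.0616) and with DESeq2 (adjusted p = 0.0525). Gapdh (−0.35), Vegfa (−0.07) and Hif1a (0.36) did not pass. The non-irradiated VIP-treated samples stood apart, with list sums of 7721, 6147, 5159 and 4831 CPM in mice 1 to 4 against 4037 to 4754 CPM after irradiation. The untreated samples summed to 3981 to 4529 CPM without and 4032 to 4186 CPM with irradiation, and their list had 1 rise and no fall. Between 8 and 10 members passed when single mice were left out.

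**Figure D4:**
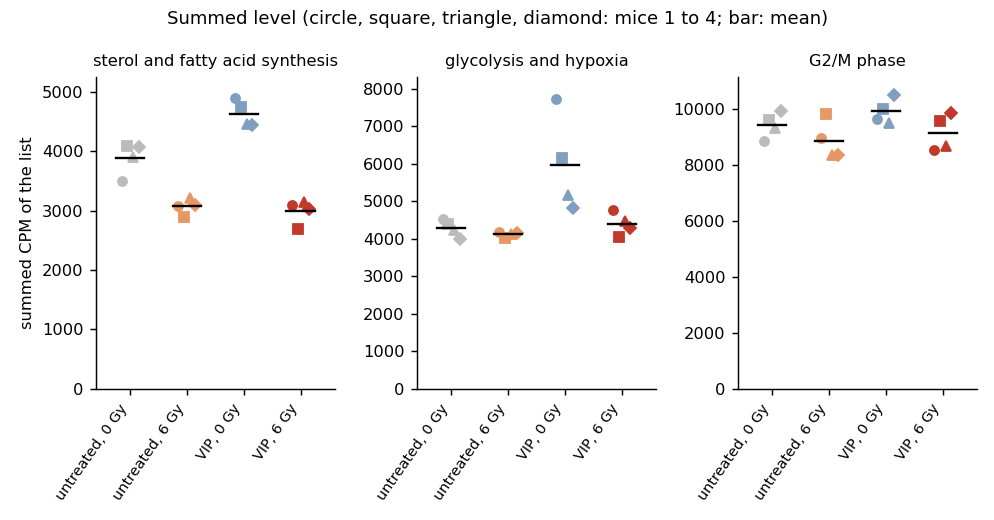
Summed CPM of the sterol and fatty acid, the glycolysis and hypoxia and the G2/M phase lists (y axes) in each of the 16 sorted samples, with a symbol per mouse and a bar for the mean of 4. The VIP-treated non-irradiated samples are the highest set in the first 2 panels, whereas the G2/M sums of the 4 groups overlap.

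The other genes among the 10 largest falls belonged to no common list. Cyp2s1, a cytochrome P450, fell from 28.3, 24.1, 20.8 and 19.4 to 12.8, 14.3, 7.15 and 8.66 CPM and the selenium-binding protein Selenbp1 from 90.2, 79.8, 46.1 and 41.9 to 36.3, 31.1, 27.4 and 24.4 CPM. Both fell in each mouse without overlap, by log2 fold changes of −1.14 (edgeR adjusted p = 0.00106) and −1.09 (edgeR adjusted p = 0.00036). Hps1, a subunit of a complex for lysosome-related organelles, the long non-coding RNA AI427809 and the processed pseudogene Gm4739 changed by −1.05, −1.14 and −1.02. Reads of Gm4739 may come from its parent gene, so its count is uncertain. Calls that ended were those of Hps1 without mouse 2 or 3 (edgeR adjusted p = 0.0507 and 0.0597) and AI427809 without mouse 2, 3 or 4 (edgeR adjusted p = 0.0649, 0.0521 and 0.0629).

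Housekeeping groups moved by small amounts. Of 79 tested cytosolic ribosomal protein genes 16 fell and 1, Rps27l, rose (median −0.16). Rpl3 fell from 975, 965, 927 and 889.7 to 648, 547, 759 and 709.9 CPM (log2 −0.50, edgeR adjusted p = 0.000722) and Rps18 by 0.42, each in 4 of 4 mice. Ribosomal protein genes have many processed copies, which makes their counts uncertain, and 9 and 11 passed without mouse 2 and mouse 4. Nuclear genes of the respiratory chain gave 12 falls and 2 rises among 78 tested (median −0.06), led by Cox7a2l (−0.34) and Cox7c (−0.47), a count of 14 that was 6, 8 and 5 without mouse 2, 3 and 4. Of 8 mitochondrially encoded genes mt-Nd5 (0.57) and mt-Co1 (0.53) rose, while mt-Nd1 was −0.18 and did not pass, and 1 gene passed without mouse 2, 3 or 4. An adjusted p over the threshold was found for mt-Co1 without mouse 2, 3 or 4 (edgeR adjusted p = 0.175, 0.0718 and 0.0531) and with DESeq2 (adjusted p = 0.129). With DESeq2's Wald test mt-Nd5 and mt-Co1 did not pass and mt-Nd1 did. None of 50 ribosome biogenesis genes passed (median 0.02), and the smallest p among them was that of Mybbp1a (0.35, edgeR adjusted p = 0.133).

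Stress and defence genes were mixed. NRF2 and glutathione genes split into 7 rises and 3 falls of 32 tested (median 0.08). Gpx2, the epithelial glutathione peroxidase, rose from 1807, 1999, 2281 and 2160 to 2576, 2706, 2936 and 2910 CPM without overlap (log2 0.43, edgeR adjusted p = 4.94e-05). Gsta4 (0.63), Txnrd1 (0.57) and Nfe2l2, which encodes NRF2 (0.30), rose, and catalase (Cat, −0.49), ferritin light chain (Ftl1, −0.46) and transketolase (Tkt, −0.21) fell. Without mouse 4 the count was 5. Dependence on the samples or tool was seen for Txnrd1 without mouse 4 (edgeR adjusted p = 0.0586), Nfe2l2 without mouse 3 or 4 (edgeR adjusted p = 0.07 and 0.0761) and Cat without mouse 2 (edgeR adjusted p = 0.0984). No call was made for Ftl1 without mouse 2 or 3 (edgeR adjusted p = 0.0589 and 0.0703) and Tkt without any 1 mouse (edgeR adjusted p = 0.0573 to 0.234) and with DESeq2 (adjusted p = 0.0721). Heat shock genes gave 2 falls of 13 tested, Hspa8 (−0.32) and Hspd1 (−0.26), and none passed without mouse 2 and 1 without mouse 4. Of 31 endoplasmic reticulum stress genes 1 passed, the asparagine synthetase Asns at −0.30 (edgeR adjusted p = 0.0348). That is 3.23%, near the 3.46% of all tested genes that fell. Of 11 tested senescence-associated genes 3 rose, Vim (2-fold), Tgfbr2 (1.01) and Cdkn1c (0.55), and 1 passed without mouse 2 or 4. The call was lost for Hspa8 without mouse 2 (edgeR adjusted p = 0.0573), Hspd1 without mouse 2 or 4 (edgeR adjusted p = 0.163 and 0.148) and Asns without mouse 2, 3 or 4 (edgeR adjusted p = 0.169, 0.18 and 0.107) and with DESeq2 (adjusted p = 0.0847). Alternative fits ended the call of Tgfbr2 without mouse 2 or 4 (edgeR adjusted p = 0.104 and 0.106) and with DESeq2 (adjusted p = 0.0859) and Cdkn1c without mouse 2, 3 or 4 (edgeR adjusted p = 0.0672, 0.115 and 0.382) and with DESeq2 (adjusted p = 0.139).

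Epithelial identity genes stayed expressed and shifted both ways, with 3 rises and 4 falls of 16 tested. The keratins Krt19 (0.38), Krt18 (0.31) and Krt8 (0.27) rose, and Cldn15 (−0.41), the intestinal homeobox gene Cdx1 (−0.34), Elf3 (−0.31) and Epcam (−0.19) fell. The 7 calls became 4, 4 and 3 without mouse 2, 3 and 4. The call did not hold for Krt8 without mouse 3 or 4 (edgeR adjusted p = 0.121 and 0.0879), Cdx1 without mouse 2, 3 or 4 (edgeR adjusted p = 0.058, 0.0561 and 0.0535) and Elf3 without mouse 2 or 4 (edgeR adjusted p = 0.0665 and 0.0986). Calls that ended were those of Epcam without any 1 mouse (edgeR adjusted p = 0.089 to 0.204). The receptor side of the treatment did not pass the test: none of 19 tested VIP receptor and cAMP genes was called (33 listed, median 0.14). Vipr1, which encodes the receptor VPAC1, had 10.7, 6.02, 5.84 and 6.68 CPM without and 10.2, 8.76, 8.94 and 8.66 CPM with irradiation. The groups overlapped at this low level and the log2 difference was 0.32 (SE 0.28, edgeR adjusted p = 0.567).

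The response of the VIP-treated cells was set beside that of untreated cells of the same mice. The 2 contrasts share no library, although both come from the same fit. In untreated cells irradiation changed 445 of 9976 genes (4.46%), 286 higher (2.87%) and 159 lower (1.59%). The count was 643, 252, 212 and 176 without mouse 1, 2, 3 and 4, and 281 with DESeq2's Wald test. Without mouse 1 the count in VIP-treated cells was 691, so the gap between the 2 counts depended on that mouse. On the first principal component the untreated non-irradiated sample of mouse 1 lay at −0.297, and those of the other mice between −9.58 and −7.14. Both contrasts called 273 genes, 35.2% of those of VIP-treated and 61.3% of those of untreated cells, and the sign was the same in 273 of 273. In the direct test of the difference, the interaction of VIP and irradiation in edgeR's quasi-likelihood fit, no gene was called (0 of 9976). The smallest adjusted p was 0.511, and 634 genes had a p under 0.05 before adjustment. DESeq2's Wald test gave 0 calls as well, and 266 genes under 0.05 before adjustment. The interaction had 1 call without mouse 1, the somatostatin gene Sst with a difference of 1.80 (edgeR adjusted p = 0.00785), 1 without mouse 3, the cholecystokinin gene Cck with a difference of 1.37 (edgeR adjusted p = 0.00265), and 34 when all genes with any count entered the edgeR fit.

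For some lists the values of both contrasts are given side by side. The p53 arrest list had a median of 1.06 with VIP and 0.58 without, with 20 and 16 members called. The other p53 lists differed in direction. Medians of the p53 apoptosis list were 0.506 with VIP and 0.595 without, with 8 and 6 rises. Those of the p53 repair and metabolism list were 0.541 and 0.289, with 12 and 9 rises. Enterocyte genes had 0.362 and 0.675, with 7 and 9 rises. Paneth genes had 0.96 and 1.02, with 16 and 19 called, and enteroendocrine genes 1.03 and 0.86, with 20 and 15. The fetal-like list had 0.85 and 0.62, with 21 and 20 called. Sterol genes had −0.45 and −0.29, with 17 and 10 falls, and glycolysis genes −0.36 and −0.05, with 11 and 0 falls. The p53 arrest list summed to 1263 to 1449 CPM with VIP and 1496 to 1659 CPM without in non-irradiated samples. Its irradiated sums overlapped, at 2327 to 2821 CPM with VIP and 2171 to 2831 CPM without. Sums of the fetal-like list overlapped at both doses. They were 2387 to 2562 and 2227 to 2643 CPM without a dose, and 3396 to 4203 and 3375 to 3772 CPM with it. No test of a list as a whole was made, so the differences between the contrasts are descriptions.

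Of the single genes, Pfkl had the smallest p for the interaction, with a log2 fold change of −1.16 with VIP and −0.17 without, a difference of −0.99 (SE 0.20, unadjusted p = 5.12e-05, edgeR adjusted p = 0.511). Its level in untreated cells was 114.2, 100.8, 104.7 and 93.8 CPM without and 91.1, 104, 65.7 and 106 CPM with irradiation, so that the VIP-treated non-irradiated samples were the ones that stood higher. Cdkn1a rose by 1.75 with VIP and 1.15 without, a difference of 0.60 (SE 0.14, unadjusted p = 0.000223, edgeR adjusted p = 0.543). Untreated cells had 354, 281, 275 and 254 CPM of it without and 588, 697, 638 and 647 CPM with irradiation. The non-irradiated level was lower with VIP in the mean of 4, 196 ± 33.3 against 291 ± 43.9 CPM (SD, n = 4). The irradiated levels overlapped, with means of 656 ± 34.3 CPM with VIP and 642 ± 44.5 CPM without (SD, n = 4). The other genes with the smallest p were Plgrkt (0.17 with VIP, −0.41 without), Gm4739 (−1.02 and −0.19) and Gm10801 (1.23 and −0.88), the last a locus with at most 36 UMIs in any VIP-treated library. Gm10801 had 35.1 CPM in the untreated non-irradiated sample of mouse 1 against 3.43 to 11.3 CPM in those of the other mice. In the irradiation contrast of VIP-treated cells, the call of Gm10801 was lost without any 1 mouse (edgeR adjusted p = 0.0564 to 0.13) and with DESeq2 (adjusted p = 0.125). None of the differences between VIP-treated and untreated cells passed after adjustment.

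**Figure D5:**
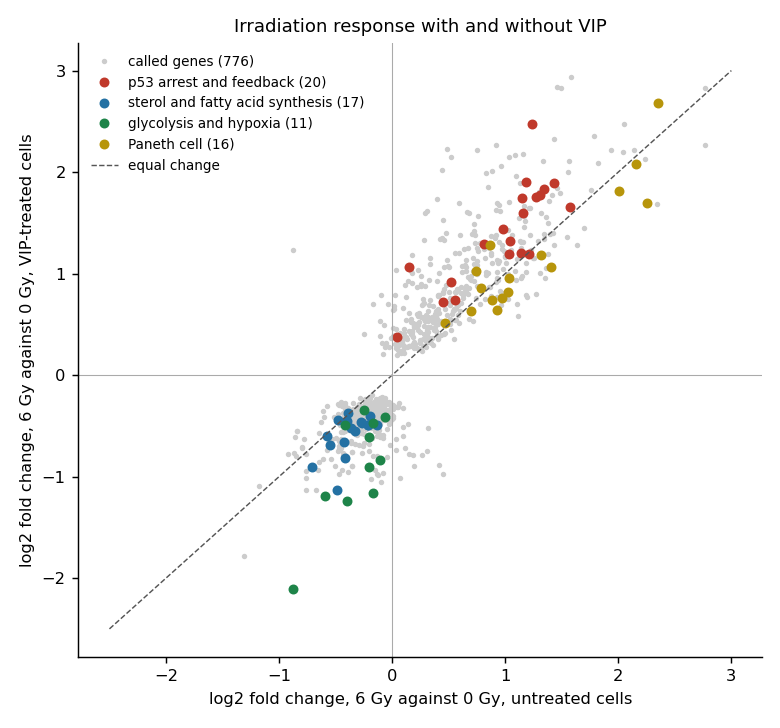
Log2 fold change with irradiation in untreated (x axis) and in VIP-treated cells (y axis) for the 776 genes called in VIP-treated cells, with called members of 4 lists in colour and a dashed line of equal change. Because the genes were chosen by the y axis, points away from 0 on it are favoured. The 20 called p53 arrest genes lie in the upper right, and the 11 called glycolysis genes lie below 0 on both axes.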

How the data were processed

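The authors deposited, for the irradiation experiment, a table of UMI counts per gene symbol for 16 sorted samples. Per the study's methods the 3′ libraries were sequenced on a NextSeq 500 and counted with the Drop-seq pipeline 1.0 on GRCm38 with GENCODE M25. Use of strand is not given in the sources used here. No column lacked a sample. Of 27547 genes, 9976 passed filterByExpr by group in edgeR 4.0.16 (limma 3.58.1, R 4.3.3).

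Counts were TMM-scaled and fitted with edgeR's quasi-likelihood model over the 16 samples, with group and mouse as terms, and Benjamini-Hochberg adjustment over the 9976 genes at 0.05. Samples were paired by the number in their labels, which was taken as the mouse. The correlation of deviations from the group means was only −0.028 to 0.079 for same-numbered samples. It was −0.086 to 0.05 for samples of different numbers. The same-numbered irradiated sample was the best match for mice 1 and 3 but not for mice 2 and 4. DESeq2 1.42.0 (the tool the study used), other scalings and filters, the fit without the block, the 8 VIP-treated samples alone, the fit without mitochondrially encoded genes and the omission of each mouse were alternatives. In simulated counts for this comparison with 9809 genes and 196 changed ones, 76.5% of 2-fold and 95.9% of 3-fold changes were recovered, and 5.59% of calls were false. These counts were drawn from the fitted spread, without mouse effects, and with changes only in the irradiated VIP-treated samples. The shares therefore check the code and do not measure the error in the real samples.

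The text names 127 genes by rule: the 10 largest called rises and falls in the same direction in 4 of 4 mice with at least 10 UMIs, the 3 members of each of 32 gene lists with the smallest p, a fixed set of markers and the 5 genes with the smallest interaction p. A further 62 list members were named after their values were seen. The members of the comparison and the gene lists were chosen with earlier results of these data known. Gene positions are from GENCODE M21 on GRCm38 and promoters from RefSeq on GRCm38.p6, in which 7708 of the tested genes matched. Fold changes of genes with few UMIs depend on the prior count. The other 21 samples of the series were used here only for the check of markers. UMI counts between 1251369 and 1876729 per VIP-treated sample set the precision.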

Additional observations from a re-analysis of the deposited data

Results flagged for a closer look

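In 29 of 388 groups of 4 samples (7.47%), 1 sample lay so far from the other 3 that its gap passed Dixon's 95% critical value for 4 samples, where chance gives about 1 in 20. The groups were the VIP-treated non-irradiated and irradiated samples of each named gene and of 5 library measures. Of the 29, 12 were in non-irradiated and 17 in irradiated samples, and mice 1 to 4 had 7, 11, 7 and 4 of them. No gene passed the test of a difference between VIP-treated and untreated cells in the fit with 4 mice.

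Among p53-related genes, the samples that stood apart without irradiation were those of Phlda3 in mouse 3 (68.2 CPM against 41.3 to 45.2 CPM in the other mice) and Trp53 in mouse 2 (214 CPM against 186 to 187 CPM in the other mice). With irradiation they were, for this group and its repair genes, Mdm4 in mouse 2 (61.3 CPM against 31.5 to 36.2 CPM in the other mice), Sat1 in mouse 1 (180 CPM against 223 to 231 CPM in the other mice) and Rad54l in mouse 2 (17.5 CPM against 25.6 to 26.7 CPM in the other mice). The single samples that stood high or low with irradiation among the largest changes were AI427809 in mouse 1 (12.3 CPM against 4.78 to 5.96 CPM in the other mice), Pid1 in mouse 1 (1.6 CPM against 7.75 to 8.76 CPM in the other mice) and Ddit4l in mouse 1 (49.7 CPM against 84.6 to 90.9 CPM in the other mice). Without irradiation these were Ddit4l in mouse 3 (26.6 CPM against 10.9 to 12.2 CPM in the other mice) and Gm23935 in mouse 1 (494 CPM against 210 to 254 CPM in the other mice). Among fetal-like genes, high values without irradiation were those of Anxa1 in mouse 3 (42.2 CPM against 29.1 to 30.1 CPM in the other mice) and Cldn4 in mouse 3 (126 CPM against 94.1 to 97.1 CPM in the other mice). A high value of a hormone gene without irradiation was that of Cck in mouse 3 (962 CPM against 282 to 350 CPM in the other mice). After irradiation the high values were those of Il1rn in mouse 3 (47.1 CPM against 31.4 to 33.7 CPM in the other mice) and Reg3b in mouse 3 (65 CPM against 19.1 to 21.6 CPM in the other mice). A low value without irradiation was that of Ccnd1 in mouse 4 (138 CPM against 200 to 206 CPM in the other mice). High ones were those of Hsp90ab1 in mouse 4 (1218 CPM against 1075 to 1097 CPM in the other mice) and Ppargc1a in mouse 4 (10.3 CPM against 2.6 to 3.82 CPM in the other mice). In the sterol genes the irradiated samples that stood apart were Insig1 in mouse 2 (57.3 CPM against 75.1 to 78.5 CPM in the other mice) and Dhcr7 in mouse 2 (49.4 CPM against 33.7 to 36.2 CPM in the other mice). Irradiated samples of the same mouse also stood apart for Ascl2 in mouse 2 (178 CPM against 257 to 260 CPM in the other mice), Itln1 in mouse 2 (2668 CPM against 2349 to 2372 CPM in the other mice) and Hmgb1 in mouse 2 (70.1 CPM against 50.8 to 53.6 CPM in the other mice). The same held for mt-Nd5 in mouse 2 (704 CPM against 440 to 479 CPM in the other mice), and the 20 most abundant genes of that sample took 14.8% of UMIs against 12.7% to 13% in the other irradiated samples. The remaining cases were Avil in mouse 2 (4.52 CPM against 6.49 to 6.88 CPM in the other mice) and Cox7c in mouse 1 (237 CPM against 180 to 188 CPM in the other mice). A low value with irradiation was that of Fosl1 in mouse 1 (12.3 CPM against 23.8 to 25.6 CPM in the other mice). A high value of a kinetochore gene with irradiation was that of Spc24 in mouse 4 (156 CPM against 136 to 139 CPM in the other mice).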

How the results depend on the processing

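With DESeq2's Wald test the number of changed genes was 489 in VIP-treated and 281 in untreated cells, against 776 and 445 in edgeR, and 486 of the 489 were among the 776. With single mice left out it ran from 426 to 691 in VIP-treated cells, from 176 to 643 in untreated cells and from 0 to 1 for their difference. All genes with any count gave 34 for the difference. The cause was not tested. Scaling by DESeq2's size factors (781) or library size (761), other filters (872 and 662), the 8 VIP-treated samples alone (801) and the fit without mitochondrially encoded genes (774) stayed within 1.5 times. Without the mouse as a block, and so without the pairing, 642 genes passed in VIP-treated and 322 in untreated cells, 636 of the 642 were also among the 776, and the difference had 0. It ended the calls of Chga, Hbegf and Scd2 (edgeR adjusted p = 0.0673, 0.0767 and 0.0551). That fit lost 17 of the 153 named genes that had passed, DESeq2 lost 26, and leaving out single mice lost 54, while 83 of the 153 passed under all 12 alternatives and 12 more under the 9 to 11 that their counts let them enter. With single mice left out, log2 differences that were not called ran across 0, from −0.110 to 0.0525 for Atoh1, from −0.178 to 0.0743 for Mki67 and from −0.180 to 0.0110 for Top2a. List counts moved by over 1.5 times in 64 of 371 cases.

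Precision is limited by 4 mice and by 1251369 to 1876729 UMIs per sample. Exposure time to VIP in the non-irradiated cells is not stated, the EGFP level of the sorted cells was not measured here, and bulk RNA does not separate cell number from RNA per cell.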
